A study of Mus musculus with 12 samples.

Results

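The genes described here are 8 receptors of the tumour necrosis factor (TNF) superfamily, Fas, Tnfrsf10b, Tnfrsf1a, Tnfrsf21, Tnfrsf12a, Ltbr, Cd40 and Tnfrsf1b, and the ligand Tnfsf10. These 9 genes were taken by name from a table of 55487 genes, and 5 of them (Tnfrsf12a, Tnfrsf1a, Ltbr, Tnfrsf10b and Tnfsf10) had enough counts to be tested among 14591 genes. RNA was sequenced from B16F10, a mouse melanoma cell line labelled wild type, after 24 h in medium conditioned by mouse bone-marrow-derived macrophages. The 4 groups of 3 libraries differed in what those macrophages had received for 24 h beforehand. M0 macrophages were kept in control medium, M1 macrophages received 20 ng/ml of INF-γ (the labels' spelling, read here as interferon gamma), M2 macrophages received 20 ng/ml of IL-4, and macrophages labelled TAM (tumour-associated macrophage) received 75% medium conditioned by B16F10 cells. All 12 libraries therefore came from 1 cell line in macrophage medium, and melanoma cells that saw no macrophage medium were not analysed here. Whether the cytokine or tumour medium was washed off before collection is not given in the labels. Nor is it given whether the 3 libraries of a group were separate cultures, so every p-value rests on a spread between libraries that may be technical.

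Receptors of the TNF superfamily sit in the cell membrane and are clustered by trimeric ligands. Fas, Tnfrsf10b, Tnfrsf1a and Tnfrsf21 carry a death domain, through which receptors such as Fas and the TRAIL receptor assemble Fadd and caspase-8 into a complex that starts apoptosis. Tnfrsf12a, Ltbr, Cd40 and Tnfrsf1b lack that domain and recruit TRAF adaptors, which lead to NF-kB and stress kinase signalling. Tumour cells can express both kinds, and immune cells carry or release the ligands.

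In the medium of M1 macrophages, 3 of the 5 tested genes were higher than in M0 medium. These were Tnfsf10 (at least 180.5-fold), Tnfrsf12a (2.91-fold in CPM) and Tnfrsf1a (1.86-fold). In TAM medium Tnfrsf12a (7.99-fold) and Tnfrsf10b (2.84-fold) were higher than in M0 medium, and none of the 5 was lower. In M2 medium no gene of the 9 was called different from M0. Fas was too sparse for the test and was read in all 3 M1 libraries, in no M0 or M2 library, and in 2 of 3 TAM libraries.

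These counts stood against a background that differed widely between comparisons. A gene was called at an adjusted p under 0.05 in edgeR's quasi-likelihood test, adjusted by Benjamini-Hochberg over all genes tested. By that rule 25.7% of all tested genes were called in M1 against M0, 50.5% in TAM against M0 and 0% in M2 against M0. Between the treated groups it was 43% for TAM against M1, 43.2% for TAM against M2 and 17.2% for M1 against M2. The 2 of 5 genes called in TAM against M0 were a smaller share than that of all genes, and a call alone sets none of them apart. Tnfsf10 passed the filter on low counts through its M1 libraries alone, so its inclusion among the tested genes already required a difference. The M1, M2 and TAM comparisons used the same M0 libraries.

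The libraries held 15916756 to 20863973 counts each. M0 replicate 1 stood apart: it had 7.21% of its counts on ribosomal protein genes, where the other libraries had 3.28% to 3.84%. Its mean exon length, weighted by counts, was 4545 bp, where the others lay between 5817 and 6091 bp. Across genes its correlation with the other M0 replicates was 0.945 and 0.948 in log2 CPM, where the remaining pairs within a group reached 0.992 to 0.993. Counts of calls against M0 are therefore also given without it, as are values that it moved most. All 12 libraries share 1 estimate of the spread, so M0 replicate 1 also enters the p-values between treated groups. Without it the genes called went from 6279 to 10489 in TAM against M1 and from 6309 to 10407 in TAM against M2. In M1 against M2 they went from 2512 to 7233. In that fit of 14968 genes 47.1% of genes were called in M1 against M0, 0.341% in M2 against M0 and 66.7% in TAM against M0. All 7 melanocyte markers were abundant, with a summed level of 13746 to 20435 CPM, lowest in the M1 and TAM libraries. Of 23 macrophage markers, 10 were at 0 in all libraries, among them Ptprc, Adgre1 and Itgam, and the sum of the list was 8.44 to 9.57 CPM in M0, 8.85 to 9.58 in M1, 9.61 to 10.4 in M2 and 4.58 to 5.98 in TAM. The 5 that passed the filter on low counts were Cd68, Mertk, Coro1a, Lyz2 and Fcer1g. Cd68 was at 3.01 CPM in M0, 4.47 in M1 and 1.51 in TAM. Mertk went from 2.59 CPM in M0 to 1.02 in TAM, and Lyz2 from 0.934 to 1.06. Among sparse markers, Fcgr1 went from 0 counts in M0 to 13 in TAM, Cx3cr1 from 0 to 7 and Csf1r from 0 to 4. The 10 lymphocyte markers summed to 1.68 to 2.88 CPM in M0, 3.39 to 4.23 in M1, 1.72 to 2.50 in M2 and 5.98 to 7.64 in TAM. Cd3e, Cd3d, Ms4a1 and Ncr1 were at 0 in all libraries. Lck made up most of the TAM sum, with a mean of 6.05 CPM in TAM and 2.19 in M0. Cd79a went from 0.329 CPM in M0 to 0.117 in TAM, and Cd4 from 0 to 0.371. The part of these low marker levels in the results below was not tested. In bulk RNA, fewer cells expressing a gene and less RNA per cell cannot be told apart.

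The promoter windows of 4 of the genes are shown because 3 of them had their highest level in M1 medium and the fourth, Tnfrsf12a, had its highest in TAM medium. Each window runs from 250 bases before to 50 bases after the RefSeq transcription start, on the strand of the gene, in the GRCm38.p6 assembly, and RefSeq windows were matched for 7 of the 9 genes. They are Tnfsf10 at chr3:27316827-27317126 (plus strand), Fas at chr19:34290409-34290708 (plus), Tnfrsf1a at chr6:125349473-125349772 (plus) and Tnfrsf12a at chr17:23677400-23677699 (minus). Capitals mark every match, on either strand, to the interferon gamma activated site (GAS, TTCNNNGAA), to the core bound by interferon regulatory factors (IRF core, AANNGAAA), to the AP-1 element (TGANTCA), to the NF-kB element, or to the composite element of CHOP and ATF4 (TGATGNAA).
Tnfsf10: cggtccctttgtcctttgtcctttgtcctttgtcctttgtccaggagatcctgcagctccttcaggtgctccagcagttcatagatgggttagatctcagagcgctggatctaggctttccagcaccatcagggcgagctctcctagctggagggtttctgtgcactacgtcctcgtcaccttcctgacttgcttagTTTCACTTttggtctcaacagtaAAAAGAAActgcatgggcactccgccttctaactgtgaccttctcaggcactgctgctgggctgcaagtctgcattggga
Fas: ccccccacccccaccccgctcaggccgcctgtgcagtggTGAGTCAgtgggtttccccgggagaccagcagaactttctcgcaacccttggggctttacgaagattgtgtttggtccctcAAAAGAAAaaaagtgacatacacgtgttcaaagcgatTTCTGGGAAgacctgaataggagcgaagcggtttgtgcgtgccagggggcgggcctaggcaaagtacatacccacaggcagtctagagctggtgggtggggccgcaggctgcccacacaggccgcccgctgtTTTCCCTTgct
Tnfrsf1a: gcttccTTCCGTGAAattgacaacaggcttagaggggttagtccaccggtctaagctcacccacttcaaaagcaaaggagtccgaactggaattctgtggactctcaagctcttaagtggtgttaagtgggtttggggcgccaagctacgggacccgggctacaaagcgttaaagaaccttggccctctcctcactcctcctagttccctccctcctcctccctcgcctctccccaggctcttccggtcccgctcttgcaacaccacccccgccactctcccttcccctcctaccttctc
Tnfrsf12a: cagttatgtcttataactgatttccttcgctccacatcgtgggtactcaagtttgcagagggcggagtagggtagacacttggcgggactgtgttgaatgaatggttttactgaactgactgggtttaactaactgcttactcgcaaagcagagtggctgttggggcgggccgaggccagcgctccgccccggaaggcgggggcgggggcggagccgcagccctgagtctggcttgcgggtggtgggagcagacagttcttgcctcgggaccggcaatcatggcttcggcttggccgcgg

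Positions are counted from the start, which is base 1. The Tnfsf10 window held 2 IRF cores, at bases -53 to -46 (minus strand) and -30 to -23. The Fas window held a GAS at -93 to -85, IRF cores at -130 to -123 and, on the minus strand, at 40 to 47, and an AP-1 element at -211 to -205. The Tnfrsf1a window held a GAS at -244 to -236 and no other match, and the Tnfrsf12a window held none of the 5 motifs. No matches overlapped. Among 32841 mouse promoter windows of the same length, 8.3% held a GAS, 23.9% an IRF core, 7.81% an AP-1 element, 4.51% an NF-kB element and 3.97% the CHOP and ATF4 element. Of the other matched genes, Tnfrsf1b held a GAS (-181 to -173) and an IRF core (-10 to -3, minus strand), Tnfrsf21 an IRF core (-250 to -243), and Ltbr no match. No window was matched for Tnfrsf10b or Cd40, so their promoters were not searched. A match describes letters in the window and is not evidence of binding.

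Tnfsf10 (ENSMUSG00000039304, chr3:27317028-27342427, plus strand, mm10) encodes TRAIL, a membrane-bound ligand that can also be released and that triggers apoptosis through Tnfrsf10b in mice. It was read 138, 228 and 193 times in the M1 libraries, which is 7.19, 13.2 and 9.57 CPM (counts scaled to a common library size, which is itself adjusted by the trimmed mean of M values). It had 0 counts in all 3 M0 libraries and 1 count in total in each of the M2 and TAM groups. Every M1 library was above every other library. Against M0, set at a floor of 3 counts over the group, the M1 level was at least 180.5-fold higher (edgeR adjusted p = 8.03e-06). The ratio of M1 to M2 was 573 with a 95% counting interval of 102 to 22662, and that of TAM to M1 was 0.00171 with an interval of 4.33e-05 to 0.00957 (edgeR adjusted p = 3.87e-06). These intervals and the floor cover counting error only. Both p-values carry the limit given above, that the gene was tested through its M1 libraries alone.

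**Figure D1:**
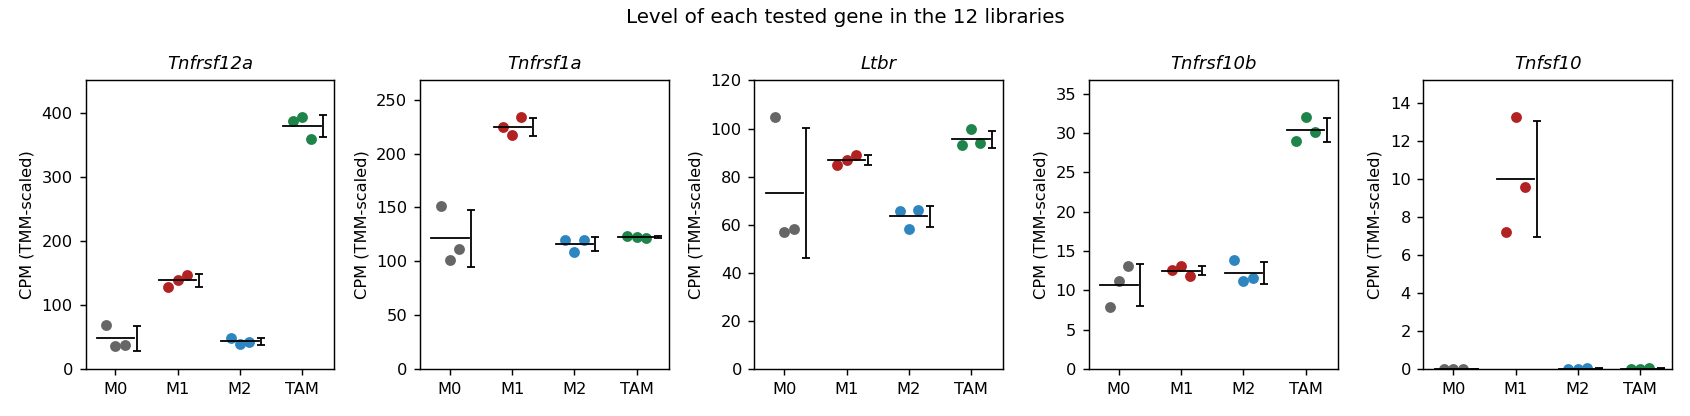
Level of the 5 tested genes in each of the 12 libraries, in CPM after TMM scaling, by group on the horizontal axis. Points are libraries, the horizontal line is the group mean and the bar beside it the SD of 3 libraries. Tnfrsf12a reaches 359 to 392 CPM in TAM, Tnfrsf1a 217 to 233 CPM in M1, and Tnfsf10 is read above 1 count per group in M1 alone.

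Fas (ENSMUSG00000024778, chr19:34290666-34327772, plus strand) encodes the receptor of Fas ligand, the classical death receptor used by cytotoxic lymphocytes. Its counts were 12, 8 and 9 in the M1 libraries, 0 in all M0 and all M2 libraries, and 1, 2 and 0 in the TAM libraries. The M1 level of 0.512 ± 0.0984 CPM (SD, n = 3) was low, but the M1 libraries did not overlap with any other. It was at least 9.36-fold above M0 and at least 9.90-fold above M2, with 3 counts over the group as the floor in both cases. The ratio of TAM to M1 was 0.0990 with a 95% counting interval of 0.0193 to 0.319. When the filter on low counts was dropped, so that the gene could be tested, edgeR's adjusted p was 0.00457 for M1 against M0, 0.0153 for TAM against M1 and 0.193 for TAM against M0. No other alternative tested this gene.

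Tnfrsf10b (ENSMUSG00000022074, chr14:69767472-69784411, plus strand), the death receptor for TRAIL in mice, was highest in TAM medium. Its levels were 7.86, 11.1 and 13.1 CPM in M0, 12.6, 13.1 and 11.9 in M1, 13.9, 11.2 and 11.6 in M2, and 29.1, 32.0 and 30.1 in TAM. The TAM libraries lay far above the others, which overlapped with each other. TAM exceeded M0 by 1.50 ± 0.17 on the log2 scale (SE, edgeR adjusted p = 2.73e-05), M1 by 1.28 ± 0.16 (8.91e-05) and M2 by 1.32 ± 0.16 (7.36e-05). The difference from M0 was 1.31 ± 0.10 without M0 replicate 1. The M1 value differed from M0 by 0.22 ± 0.17, with a 95% interval of -0.11 to 0.55 and an edgeR adjusted p of 0.351. Thus the receptor and its ligand had their highest levels in different groups, Tnfrsf10b in TAM and Tnfsf10 in M1.

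Tnfrsf1a (ENSMUSG00000030341, chr6:125349362-125362484, plus strand) encodes TNF receptor 1, a widely expressed receptor of TNF that signals to NF-kB and, in another complex, to cell death. Its levels were 151, 101 and 111 CPM in M0, 224, 217 and 233 in M1, 119.5, 108 and 120.0 in M2, and 123, 123 and 122 in TAM. Every M1 library was above every other library, and the M0 libraries spanned those of M2 and TAM. M1 exceeded M0 by 0.89 ± 0.13 on the log2 scale (edgeR adjusted p = 0.000688), and by 1.12 ± 0.05 without M0 replicate 1 (4.09e-26). M1 exceeded M2 by 0.96 ± 0.13 (edgeR adjusted p = 0.000493), and TAM was lower than M1 by the log2 difference of -0.88 ± 0.13 (0.000334). TAM differed from M0 by 0.02 ± 0.13 with all libraries (edgeR adjusted p = 0.931). When M0 replicate 1, the highest M0 library for this gene, was left out, that difference was 0.20 ± 0.05 and was called (edgeR adjusted p = 0.000372).

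Tnfrsf21 (chr17:43016555-43089189, plus strand), the death-domain receptor also called DR6 and studied mostly in neurons and lymphocytes, had 0 counts in all 12 libraries. The floor of 3 counts over a group corresponds to 0.0507 to 0.0548 CPM, and a level below this in a group could have gone unread at this depth.

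Tnfrsf12a (ENSMUSG00000023905, chr17:23675445-23677468, minus strand) encodes Fn14, the receptor of the cytokine TWEAK, and is known as a gene induced by growth factors and injury. It had the largest change of the 4 tested receptors in both TAM and M1 medium. Its levels were 69.2, 35.7 and 37.6 CPM in M0, 128, 139 and 147 in M1, 48.6, 38.1 and 42.2 in M2, and 386, 392 and 359 in TAM. The TAM libraries lay above all M1 libraries, and these above all M0 and M2 libraries, which overlapped. TAM exceeded M0 by 3.00 ± 0.23 on the log2 scale (edgeR adjusted p = 2.06e-06), M2 by 3.14 ± 0.23 (1.63e-06) and M1 by 1.46 ± 0.22 (0.000283). M1 exceeded M0 by 1.54 ± 0.22 (edgeR adjusted p = 0.000497) and M2 by 1.68 ± 0.22 (0.000291). Leaving out M0 replicate 1, again the highest, gave differences from M0 of 3.36 ± 0.09 for TAM and 1.95 ± 0.09 for M1.

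Ltbr (ENSMUSG00000030339, chr6:125306571-125313885, minus strand) encodes the lymphotoxin beta receptor, an activator of the non-canonical NF-kB pathway whose ligands are lymphotoxin and LIGHT. Its levels were 104.6, 57.0 and 58.2 CPM in M0, 84.9, 86.8 and 89.0 in M1, 65.8, 58.4 and 66.3 in M2, and 93.3, 99.7 and 93.9 in TAM. The TAM libraries lay above all M1 and M2 libraries, while the M0 group spanned the whole range because of replicate 1. The difference from M0 was 0.38 ± 0.20 for TAM (log2, edgeR adjusted p = 0.124) and 0.25 ± 0.20 for M1 (0.376, 95% interval -0.14 to 0.63). Both were called without M0 replicate 1, at 0.73 ± 0.06 for TAM (edgeR adjusted p = 2.1e-16) and 0.63 ± 0.06 for M1 (1.03e-13). TAM exceeded M2 by 0.59 ± 0.20 (edgeR adjusted p = 0.031), in a fit whose spread was estimated over all 12 libraries, M0 included. Leaving out any single M2 or TAM library raised that p to between 0.0637 and 0.106. Over all fits that left out 1 library, the edgeR adjusted p ranged from 3.15e-15 to 0.106.

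The position of M0 replicate 1 was not the same for each gene. It was the highest M0 library for Ltbr, Tnfrsf12a and Tnfrsf1a, whose exons total 2354, 1932 and 2591 bp, and the lowest for Tnfrsf10b, whose exons total 5451 bp. This library also had the short mean exon length given above, and the part of that property in these values was not tested. Without it, 4 of the 5 tested genes were called in each of M1 and TAM against M0, in place of 3 and 2, and none in M2 against M0. Over all genes that fit called 47.1% in M1, 66.7% in TAM and 0.341% in M2, in place of 25.7%, 50.5% and 0%.

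**Figure D2:**
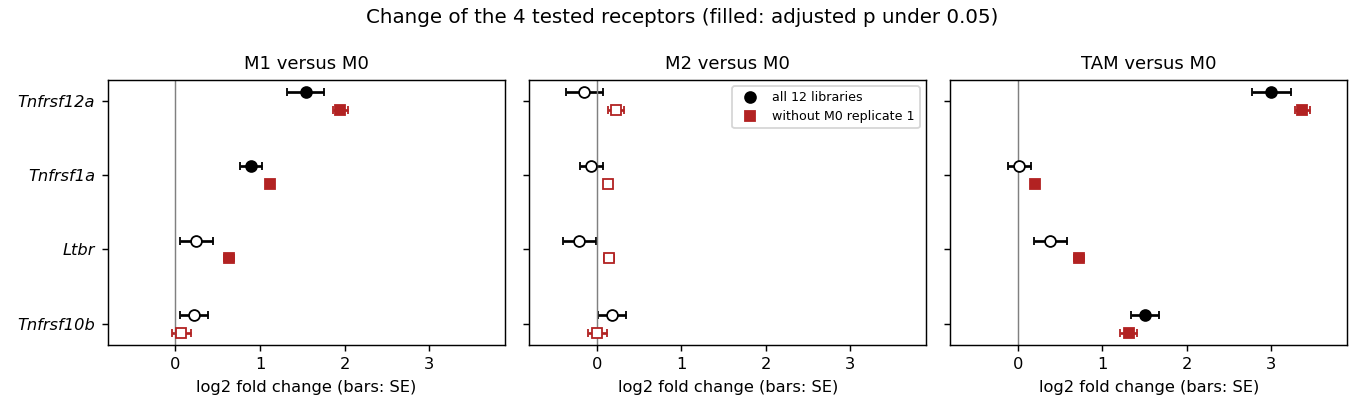
Log2 fold change of the 4 tested receptors in each comparison with M0, with all libraries (circles) and without M0 replicate 1 (squares). Bars are SE and filled symbols have an edgeR adjusted p under 0.05. Leaving out M0 replicate 1 turns Ltbr from open to filled in M1 and TAM, and Tnfrsf1a in TAM, and no symbol is filled in M2.

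The M2 group gave no call among these genes. The differences from M0 were 0.19 ± 0.17 for Tnfrsf10b, -0.14 ± 0.22 for Tnfrsf12a, -0.21 ± 0.20 for Ltbr and -0.06 ± 0.13 for Tnfrsf1a on the log2 scale, with edgeR adjusted p between 0.569 and 0.785. With all libraries none of the 5 tested genes reached an unadjusted p under 0.05. Among all genes, edgeR called 0 in M2 against M0 and 980 had an unadjusted p under 0.05, where DESeq2 called 7 and limma-voom 0. Without M0 replicate 1 the differences were 0.13 for Tnfrsf1a (edgeR unadjusted p = 0.0107), 0.15 for Ltbr (0.0161) and 0.23 for Tnfrsf12a (0.0329). These had the opposite sign and were not called, with edgeR adjusted p between 0.451 and 0.648. Tnfrsf10b and Tnfsf10 stayed above an unadjusted p of 0.05.

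The remaining co-stimulatory receptors were sparse. Tnfrsf1b (chr4:145213463-145246870, minus strand) encodes TNF receptor 2, found mainly on lymphocytes and other immune cells. It was read 4, 3 and 3 times in the M0 libraries, 3, 3 and 1 times in M1, 6, 10 and 4 times in M2 and 12, 3 and 7 times in TAM. Each group overlapped with M0, the M2 libraries lay above those of M1, and with the filter dropped edgeR's adjusted p was 0.756 for M1, 0.679 for M2 and 0.318 for TAM against M0. Cd40 (chr2:165055627-165072948, plus strand), the receptor through which helper T cells license antigen-presenting cells, was read 0, 2 and 2 times in M1 and 0, 1 and 1 times in TAM. It had 0 counts in the M0 and M2 libraries, and no difference was detectable at this depth (edgeR adjusted p = 0.262 for M1 against M0 with the filter dropped).

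**Figure D3:**
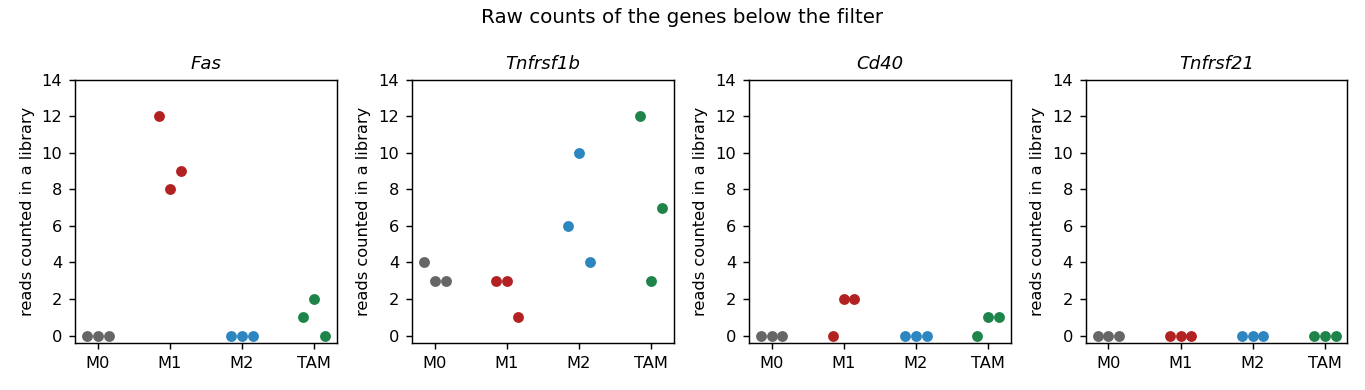
Raw counts in each library of the 4 genes below the filter on low counts, by group. Points are libraries. Fas lies at 8 to 12 counts in M1 and at 0 to 2 elsewhere, Tnfrsf1b at 1 to 12 in all groups, Cd40 at 0 to 2 and Tnfrsf21 at 0.

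Levels can be compared between genes after division by exon length, in CPM per kilobase. In M0 the order was Tnfrsf1a (46.8), Ltbr (31.1), Tnfrsf12a (24.6) and Tnfrsf10b (1.96). The ranges over the M0 libraries overlapped between Tnfrsf1a and Ltbr and between Ltbr and Tnfrsf12a. In M2 the order was the same, with the ranges of Ltbr and Tnfrsf12a overlapping. Within each single library of M0 and of M2, these genes nevertheless stood in that order. In M1 Tnfrsf12a stood second at 71.4, between Tnfrsf1a at 86.8 and Ltbr at 36.9, and Tnfsf10 at 1.90 overlapped with Tnfrsf10b at 2.29. In TAM Tnfrsf12a was first at 196.4, above Tnfrsf1a at 47.3, Ltbr at 40.6 and Tnfrsf10b at 5.57, and no neighbours among these 4 overlapped.

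For each tested gene, the 3 genes with the most similar pattern over the 12 libraries were found by the root mean square (RMS) difference of their centred log2 CPM. For Tnfrsf10b these were Arntl (0.0841), Sft2d2 (0.0871) and Rbm39 (0.107), against a median of 0.709 over all genes compared. For Tnfrsf1a they were Ifnar2 (0.0783), Usb1 (0.0829) and Litaf (0.0982), against 0.564. Ltbr was followed by Tmem143 (0.0702), Smim14 (0.0738) and Yars (0.0794), against 0.493. Tnfrsf12a had Adh7 (0.188), Cyb5r2 (0.221) and Ltbp4 (0.230), against 1.36, and Tnfsf10 had Dhx58 (0.224), Ifi206 (0.261) and Ubd (0.273), against 2.82. The order depended in part on M0 replicate 1. Without it Rbm39 was at rank 20 for Tnfrsf10b and Litaf at rank 10 for Tnfrsf1a, while the 3 genes of Tnfsf10 kept their ranks. The RMS grows with how much a gene varies, so it is read against the median of the same gene. The points share libraries and depth, and the values are descriptions.

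Other receptors of the superfamily gave a mixed picture. Of 20 listed, 12 were tested, and 5 were higher and 2 lower in M1 than in M0, with a median log2 change of 0.15 against -0.02 over all genes. In TAM 4 were higher and 3 lower than in M0, with a median of 0.55 against -0.02, and none was called in M2. Over 13 receptors tested without M0 replicate 1, 5 were higher and 3 lower in M1, and 6 higher and 4 lower in TAM. The 7 of 12 called in each of M1 and TAM stood beside 25.7% and 50.5% of all genes. The counts without M0 replicate 1 stood beside 47.1% in M1 and 66.7% in TAM. Tnfrsf11a and Tnfrsf13b had 0 counts in all libraries.

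Tnfrsf14, the receptor of LIGHT also called HVEM, rose in M1 medium. It was at 17.1, 16.7 and 16.4 CPM in M1, and between 0.111 and 0.563 CPM in the 9 other libraries. The log2 difference between M1 and M0 was 5.98 ± 0.34 (edgeR adjusted p = 2.34e-07), with 5.66 without M0 replicate 3 and 6.96 without M0 replicate 2. The gene passed the filter on low counts through its M1 libraries alone, so that being tested already required a difference. Ngfr, the p75 neurotrophin receptor, was higher in both M1 and TAM medium. It was at 1.73, 1.25 and 2.59 CPM in M0, 25.1, 25.5 and 28.0 in M1 and 31.7, 33.4 and 35.0 in TAM, which gave 3.79 ± 0.22 for M1 (edgeR adjusted p = 3.17e-07) and 4.14 ± 0.22 for TAM (1.68e-07). Tnfrsf9, the co-stimulatory receptor 4-1BB, was at 3.30 CPM in M1 against 0.523 in M0, a log2 difference of 2.60 ± 0.44 (edgeR adjusted p = 0.00153).

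Tnfrsf22 and Tnfrsf23 encode the decoy TRAIL receptors of the mouse, which bind the ligand and lack a death domain. Tnfrsf22 was at 21.4, 23.0 and 20.0 CPM in TAM and at 14.5, 14.6 and 16.1 in M0, a log2 difference of 0.51 ± 0.09 (edgeR adjusted p = 0.00104). Tnfrsf23 was read 53, 67 and 48 times in TAM and 4, 9 and 1 times in M0, a difference of 3.41 ± 0.66 (edgeR adjusted p = 0.00139). That difference was 2.85 without M0 replicate 3 and 4.38 without M0 replicate 2. Tnfrsf23 passed the filter through its TAM libraries alone, so the same limit holds. Its exons overlap E230032D23Rik on the opposite strand, and without a stated strand setting reads of the pair cannot be told apart. Tnfrsf25, the death-domain receptor DR3, was at 3.18, 2.07 and 2.44 CPM in M0, 0.573, 0.639 and 0.893 in M1 and 0.366, 0.598 and 0.151 in TAM, lower in both treated groups. The log2 differences were -1.85 ± 0.35 in M1 (edgeR adjusted p = 0.00308) and -2.76 ± 0.38 in TAM (0.000141).

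**Figure D4:**
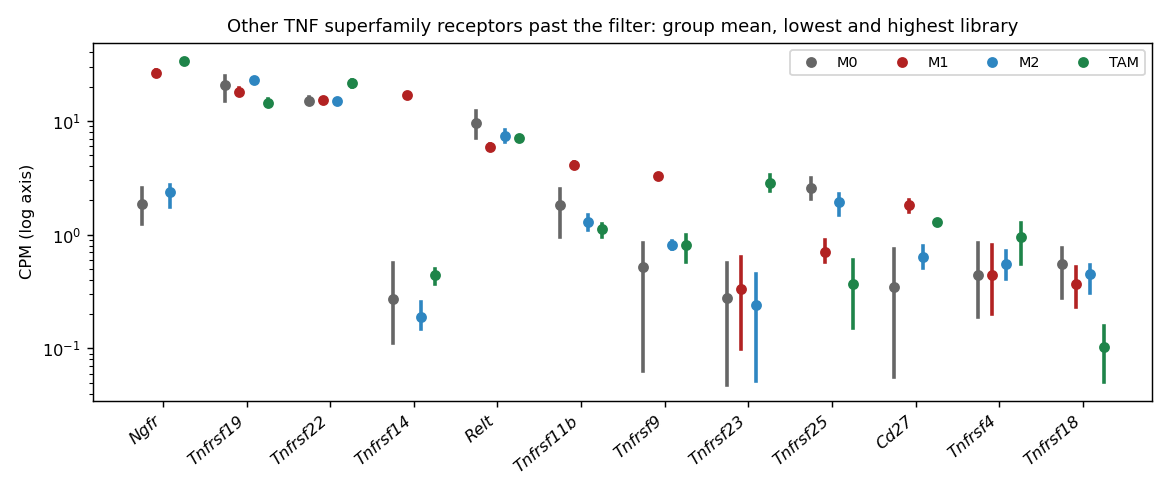
Levels of the other tested receptors of the TNF superfamily by group, in CPM on a log axis. Points are group means and lines run from the lowest to the highest of 3 libraries. Tnfrsf14 is near 17 CPM in M1 and below 1 CPM elsewhere, and Ngfr is high in both M1 and TAM.

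Few ligands of these receptors had enough counts in the melanoma cells to be tested. Of 17 listed other ligands Tnf, Tnfsf9 and Tnfsf12 were tested, and 7 had 0 counts in all libraries (Tnfsf4, Cd40lg, Cd70, Tnfsf8, Tnfsf11, Tnfsf14 and Tnfsf15). Fasl, the ligand of Fas, was read 2 times in TAM replicate 1 and in no other library. Tnf was read 12, 12 and 23 times in M1 and 4, 0 and 4 times in M0, a log2 difference of 2.46 ± 0.78 (edgeR adjusted p = 0.0398, with the call kept under 9 of 19 alternatives, over which p ranged from 0.00207 to 0.137). It passed the filter through its M1 libraries alone. Tnfsf12, which encodes TWEAK, the ligand of Tnfrsf12a, was read 28, 12 and 14 times in M0, 15, 10 and 21 times in M1 and 11, 10 and 8 times in TAM. It was not called in either comparison with M0 (edgeR adjusted p = 0.613 for M1 and 0.0692 for TAM), and it shares 731 of its 1515 exonic bases with Tnfsfm13 on the same strand. Tnfsf9, the ligand of 4-1BB, was lower in TAM, at 3.29 ± 0.606 CPM against 5.57 ± 1.84 in M0 (log2 -0.75 ± 0.23, edgeR adjusted p = 0.019, with the call kept under 17 of 20 alternatives, over which p ranged from 0.00216 to 0.0954), and the groups overlapped.

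Genes of the death signalling complex were mostly higher in M1 medium. Of 15 listed, 14 were tested, and 9 rose and 0 fell against M0, with a median log2 change of 0.93 against -0.02 over all genes. In TAM 6 rose and 3 fell against M0, with a median of 0.23 against -0.02. Between TAM and M1, 1 was higher and 9 were lower in TAM, in a comparison that called 43% of all genes. The counts without M0 replicate 1 were 9 and 1 for M1 and 7 and 3 for TAM. The 9 of 14 called in M1 stood beside 25.7% of all genes, and the 9 of 14 called in TAM beside 50.5%. Without M0 replicate 1 the shares of all genes were 47.1% in M1 and 66.7% in TAM, where 10 of 14 were called.

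Casp8, the initiator caspase recruited by Fas and the TRAIL receptor, moved in opposite directions in M1 and TAM. It was at 80.3 ± 3.56 CPM in M0, 138.5 ± 4.60 in M1 and 56.4 ± 4.67 in TAM (SD, n = 3), with log2 differences from M0 of 0.79 ± 0.09 in M1 (edgeR adjusted p = 6.15e-05) and -0.51 ± 0.09 in TAM (0.000576). Ripk1, the kinase shared by TNF receptor 1 and the death complexes, rose by 0.69 ± 0.10 in TAM (edgeR adjusted p = 0.000234). Part of its exons is shared with Gm17084 on the same strand and with Serpinb6a on the opposite strand. Daxx, first described as a protein that binds Fas, was at 158 ± 8.66 CPM in M1 against 44.4 ± 7.96 in M0, and at 36.9 ± 2.73 in TAM. Its log2 difference between M1 and M0 was 1.83 ± 0.13 (edgeR adjusted p = 1.42e-06).

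The TRAF and NF-kB adaptors were less uniform. Of 22 listed, 21 were tested, 7 were higher and 1 lower in M1 than in M0 (median log2 change 0.36 against -0.02 over all genes), and 6 were higher and 4 lower in TAM (median -0.01). Without M0 replicate 1 these counts were 16 and 2 for M1, and 9 and 8 for TAM. The 10 of 21 called in TAM were near the 50.5% of all genes called there, and the 8 of 21 called in M1 stood beside 25.7%. Without that library the shares over all genes were 47.1% in M1 and 66.7% in TAM. Rnf31, the catalytic subunit of the linear ubiquitin ligase that acts at TNF receptor 1, was at 64.8, 73.4 and 72.2 CPM in M1 and at 19.1, 17.2 and 17.3 in M0. The log2 difference was 1.97 ± 0.10 (edgeR adjusted p = 6.22e-08), and the gene shares 123 exonic bases with Irf9 on the same strand. Cyld, a deubiquitinase that opposes that ligase, was also higher in M1 (1.64 ± 0.24, edgeR adjusted p = 0.000511), as was the inhibitor Tnfaip3, also called A20 (1.55 ± 0.34, 0.00689). Map3k14, the NF-kB inducing kinase of the non-canonical pathway used by Ltbr, Cd40 and Tnfrsf12a, was at 19.8 ± 1.06 CPM in TAM against 8.18 ± 1.46 in M0 (log2 1.28 ± 0.15, edgeR adjusted p = 4.79e-05).

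Of the 4 proteins listed for receptor shedding, Rhbdf2, also called iRhom2 and needed for the maturation of the TNF receptor sheddase Adam17, rose in both groups. Its level was 23.5 ± 1.43 CPM in M0, 35.8 ± 2.94 in M1 and 63.0 ± 1.89 in TAM. The log2 differences from M0 were 0.61 ± 0.10 in M1 (edgeR adjusted p = 0.00128) and 1.43 ± 0.10 in TAM (1.07e-06). Rhbdf1 was called lower in M1 (-0.46 ± 0.15, edgeR adjusted p = 0.0475), a call kept under 6 of 20 alternatives, over which the adjusted p ranged from 0.015 to 0.271. Adam17 and Adam10, the sheddases themselves, were not called in either comparison with M0. Without M0 replicate 1 both were called in both. Adam10 then differed by 0.50 ± 0.04 in M1 (edgeR adjusted p = 2.47e-14) and by -0.20 ± 0.04 in TAM (5.8e-05), and Adam17 by 0.28 ± 0.05 in M1 (8.01e-07) and by -0.22 ± 0.05 in TAM (3.95e-05). In the list as a whole 1 was higher and 1 lower in M1 and 1 higher in TAM with all libraries. Without M0 replicate 1, 3 were higher and 1 lower in M1, and 2 higher and 2 lower in TAM. Over all genes, 25.7% were called in M1 and 50.5% in TAM with all libraries, and 47.1% and 66.7% without that library.

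Among 10 regulators listed beside the receptors, 4 were higher in M1 and none lower, and in TAM 7 were higher and 2 lower than in M0. Without M0 replicate 1 these counts were 9 and 0 for M1, and 8 and 2 for TAM. The shares of all genes called were 25.7% and 50.5% with all libraries, and 47.1% and 66.7% without that library. Irf1, an interferon-induced transcription factor, was at 683 ± 2.08 CPM in M1 against 14.2 ± 2.82 in M0 (log2 5.59 ± 0.16, edgeR adjusted p = 1.61e-09), and it was at 10.7 ± 0.332 in TAM. Relb and Nfkb2, the transcription factor subunits of the non-canonical NF-kB pathway, were higher in both groups. Relb was at 10.8 ± 3.83 CPM in M0, 33.0 ± 1.44 in M1 and 43.7 ± 2.05 in TAM, with log2 differences of 1.61 ± 0.21 (edgeR adjusted p = 0.000232) and 2.02 ± 0.21 (1.8e-05). Mdm2 and Cdkn1a, 2 targets of p53, which is also known to act on Fas and on the human TRAIL receptor genes, rose in TAM by 2.03 ± 0.15 (edgeR adjusted p = 1.42e-06) and 1.69 ± 0.18 (2.24e-05). Ddit3 encodes CHOP, a stress-induced factor known in human cells to act on the TRAIL receptor gene, and was chosen after its values were seen. It was at 197 ± 10.2 CPM in TAM against 45.3 ± 31.0 in M0 (log2 2.12 ± 0.36, edgeR adjusted p = 0.000582), and the difference was 2.84 ± 0.12 without M0 replicate 1.

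**Figure D5:**
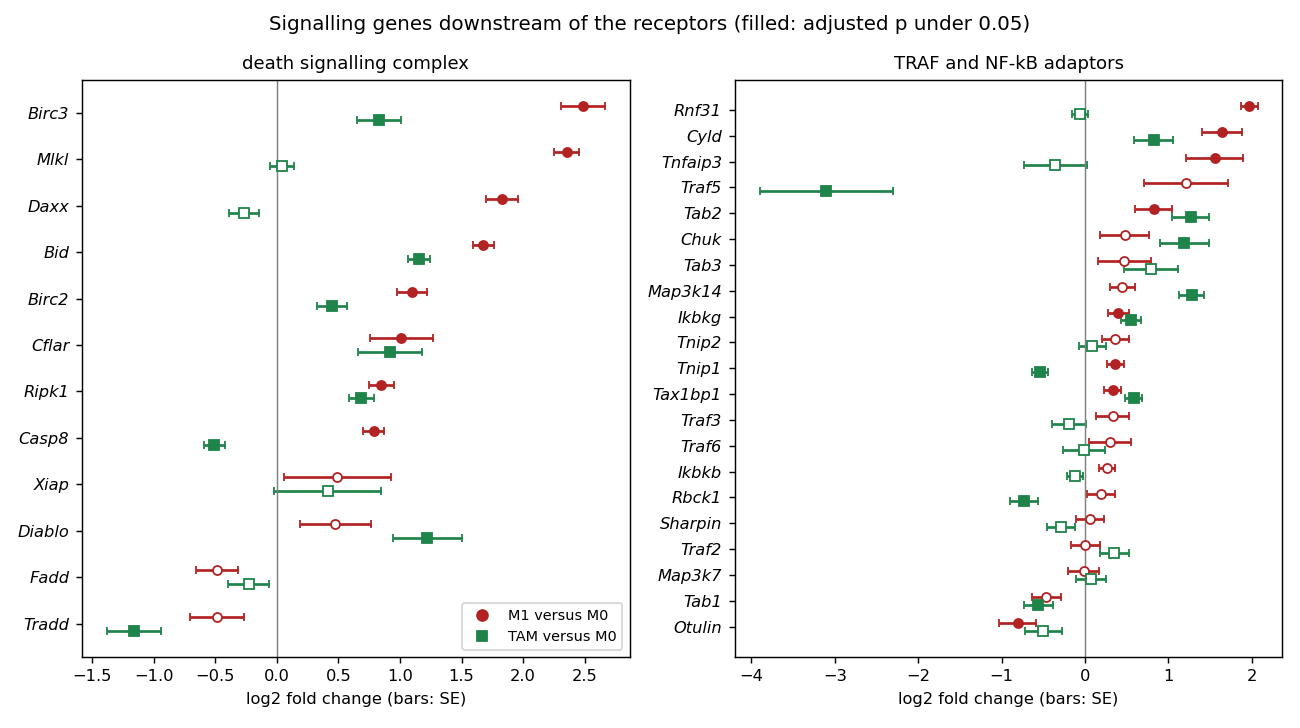
Log2 fold change of genes downstream of the receptors in M1 and TAM against M0. Bars are SE and filled symbols have an edgeR adjusted p under 0.05. Daxx is raised in M1 and below 0 in TAM, and Casp8 is raised in M1 and lower in TAM. Genes that are not reported here are left out of the plot.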

How the data were processed

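The authors deposited 1 table of whole-number read counts, with a column for each of 12 libraries, per the file headers. The submitters' processing notes list HISAT2 2.0 and mm10 with no role. The counter, annotation and strand setting are not stated there, in the labels or in the file headers. RNA was extracted with Trizol and mRNA libraries were made, per the labels' protocols. The group of TAM replicate 2, whose title is misspelt, came from its treatment label.

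The tests used edgeR 4.0.16 in R 4.3.3: filterByExpr by group, TMM scaling, 1 robust quasi-likelihood fit of all 12 libraries, and Benjamini-Hochberg adjustment over 14591 genes in each of 6 comparisons. The SE is the absolute log2 change divided by the square root of its F statistic. CPM use TMM-scaled totals, except for the sums of the melanocyte, macrophage and lymphocyte markers. Coordinates and merged exon lengths come from GENCODE release M21 (GRCm38, mm10), and promoters from RefSeq, GRCm38.p6. Intervals for ratios are exact conditional binomial, at 95%. Those for log2 differences are approximate, from the SE and a normal distribution, and can be narrower than the test implies. For Ltbr in TAM against M0 the interval was 0.00017 to 0.77, where edgeR's unadjusted p was 0.0761. Alternatives were RLE and upper-quartile scaling, no filter, 1 CPM in 3 libraries, DESeq2 1.42.0, limma-voom (limma 3.58.1), fits of only the compared groups, a replicate block, and leaving out each library. From every gene list, up to 4 genes with the smallest adjusted p per comparison were named, and some of these are not reported here. The genes and lists were chosen with earlier results of these data known. Steps were tested on simulated counts.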

Additional observations from a re-analysis of the deposited data

How the results depend on the processing

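Tnfrsf12a and Tnfrsf1a in M1 against M0, and Tnfrsf12a and Tnfrsf10b in TAM against M0, kept their direction and their call under all 20 alternatives. Tnfsf10 in M1 against M0 did so too, but it passed the filter on low counts through its M1 libraries alone. Being tested under a filter already required a difference, so no conclusion is drawn from its kept call in those fits. The number of the 5 tested genes called, Tnfsf10 included, ranged from 3 to 4 in M1 and from 2 to 4 in TAM over the fits that left out 1 library. The 4 in each were reached without M0 replicate 1, where 47.1% of all genes were called in M1 and 66.7% in TAM. For TAM against M2 the number of these genes called ranged from 2 to 3, with Ltbr lost without any single M2 or TAM library. Dropping the filter added Fas, giving 4 in M1 against M0, 5 in TAM against M1 and 4 in M1 against M2.

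Differences near 0 changed sign. Tnfrsf1a in TAM against M0 was 0.02 on the log2 scale, -0.0072 with upper-quartile factors, and -0.11 (without M0 replicate 2) to 0.20 (without M0 replicate 1) over the fits that left out 1 library. M2 against M0 ranged over those fits from -0.18 to 0.13 for Tnfrsf1a, -0.31 to 0.23 for Tnfrsf12a and -0.36 to 0.15 for Ltbr, the lowest without M0 replicate 2 and the highest without M0 replicate 1, none of them called. Tnfrsf10b in M1 against M2 ranged from -0.022 to 0.14. The cause was not tested.

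Counts over all genes moved more. Leaving out 1 library gave 2287 to 7056 genes in M1 against M0 (lowest without M1 replicate 1, highest without M0 replicate 1, and 2351 without M1 replicate 3), 0 to 51 in M2 against M0, 6107 to 9983 in TAM against M0, 5176 to 10489 in TAM against M1, 5205 to 10407 in TAM against M2 and 1686 to 7233 in M1 against M2, and each highest count came without M0 replicate 1. DESeq2 called 7 genes in M2 against M0. Fits of only the compared groups, which do not share the spread of the other libraries, called 1282 genes in M1 against M0, 4619 in TAM against M0, 10301 in TAM against M1, 10182 in TAM against M2 and 6952 in M1 against M2.

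The replicate numbers showed no clear pairing of the samples: over 18 same-numbered pairs the correlation of deviations from the group means was -0.129 to 0.163, and over 36 other pairs -0.173 to 0.148. With 3 libraries per group and M0 replicate 1 standing apart, a weak pairing could go unseen. With the number as a replicate block edgeR called 3156 genes in M1 against M0, 0 in M2 against M0 and 7071 in TAM against M0, and the same numbers of the 5 tested genes as without it. Depth limits Fas, Tnfrsf1b, Cd40 and Tnfrsf21, and the 3 libraries per group limit the precision of all differences.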
